A study of Mus musculus with 30 samples.

Results

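The genes described here encode the core machinery and the sequence-specific regulators of pre-mRNA splicing. They are all symbols of the mouse expression table that begin with Srsf and a digit (SR proteins), with Hnrnp (heterogeneous nuclear ribonucleoproteins, hnRNP), with Sf3a or Sf3b and a digit (subunits of splicing factor SF3), with Prpf and a digit (pre-mRNA processing factors) or with Snrp (protein components of the small nuclear ribonucleoproteins, snRNP). The rule found 65 of the 24062 symbols that stand on 1 row: 20 hnRNP, 13 PRPF, 12 snRNP, 11 SR and 9 SF3 genes. Of these, 64 passed a filter of at least 1 FPKM (fragments scaled to transcript length and to the mapped total) in at least 2 libraries, which 11759 genes of the table passed. The gene left out was Srsf12, an SR protein that was listed at 0 in 20 of 30 libraries and at most at 0.452 FPKM in the others.

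RNA came from cells of the lumbar spinal cord that were freed of myelin and selected magnetically for CD11b, a surface integrin of microglia that monocytes and neutrophils also carry. All mice were C57BL/6J. Chronic morphine followed a fixed plan in 4 libraries and an escalating plan in 3, with 4 and 3 saline libraries to match them. The injuries to the sciatic nerve had 2 libraries per time: transection (SNT) on days 1, 2, 4 and 7 post injury (dpi), constriction (CCI, chronic constriction injury) on days 2 and 7, and SNI, in which some branches are spared, on day 7. The 2 remaining libraries came from naive mice, without treatment or injury. Doses and ages are not in the labels, nor is whether libraries stem from separate mice, and p-values therefore measure only the spread between these libraries.

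The spliceosome is built on each intron from the snRNPs, in which a ring of Sm proteins (Snrpb, the Snrpd genes, Snrpe, Snrpf and Snrpg) wraps a small nuclear RNA. SF3 subunits hold the U2 snRNP on the branch point, and many PRPF proteins belong to the tri-snRNP or to the complex that activates the spliceosome. SR proteins bind exonic enhancers and mostly promote the use of a splice site. The hnRNPs coat nascent transcripts, often silence splice sites, and in several cases act on mRNA stability and transport.

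Since FPKM values carry no read counts, the depth is unknown. Libraries had 8005 to 10427 genes at 1 FPKM or more, and 3 libraries had the fewest: SNT 1 dpi replicate 1 with 8005, SNT 7 dpi replicate 1 with 8466 and SNT 2 dpi replicate 2 with 8763. The 10 microglial markers (among them Cx3cr1, P2ry12, Tmem119 and Sall1) were above 0 in all 30 libraries and summed to between 9453 and 18130 FPKM. Neutrophil markers, of which 8 of 9 had a row, summed to between 1641 and 60460 FPKM, and the endothelial marker Cldn5 was listed at 0 in 26 libraries. The libraries fell into 2 sets by the level of Cst3, which encodes the secreted protease inhibitor cystatin C. It stood at 10120 to 20830 FPKM in 14 libraries (low Cst3) and at 39500 to 95120 FPKM in 16 (high Cst3). The low set held all naive, fixed morphine, CCI and SNI libraries, escalating morphine replicate 1 and SNT 7 dpi replicate 2. The high set held all 7 saline libraries and the other SNT and escalating morphine libraries. No label gives this division, and what produced it was not tested.

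The splicing genes spanned a wide range of levels in these cells. On the log2(FPKM + 1) scale, averaged over the 12 group means, Hnrnpk stood highest at 7.44, followed by Snrpb at 6.96, Hnrnpf at 6.90, Hnrnpa2b1 at 6.46 and Srsf9 at 6.44. Hnrnpk, a poly(C)-binding protein, ran from 80.5 to 258 FPKM over the 30 libraries with a median of 181 FPKM. Snrpb, a core Sm protein, ran from 78.5 to 234 FPKM with a median of 121 FPKM. Hnrnpa2b1, which binds and transports mRNA, had a median of 84.5 FPKM and a range of 45.3 to 147 FPKM. These ranges overlapped, so the order at the top does not hold library by library.

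Srsf9 had the highest median of the SR genes over all 30 libraries, at 92.8 FPKM. Srsf1, a founding SR protein, was the least abundant of the 10 tested, with a median of 11.7 FPKM and a range of 6.33 to 31.0 FPKM. Between them, Srsf5 had a median of 77.1 FPKM, Srsf2 of 71.3 FPKM, Srsf3 of 45.7 FPKM and Srsf7 of 33.9 FPKM. The order at the top differed in the 16 high-Cst3 libraries, where the medians were 90.7 FPKM for Srsf5, 72.75 FPKM for Srsf2 and 58.89 FPKM for Srsf9. Among SF3 subunits, Sf3b1, which contacts the branch point, was highest, with a median of 43.0 FPKM, and Sf3a2 was lowest, with 8.48 FPKM. PRPF genes were lower: Prpf8, the central scaffold of the spliceosome, had a median of 16.1 FPKM, and the lowest medians were those of Prpf40b with 3.82 FPKM and Prpf4 with 3.50 FPKM.

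The lowest hnRNP gene was Hnrnpul2, with a median of 2.63 FPKM, and the lowest of all 64 was Snrpn, with a median of 1.43 FPKM. Snrpn is the imprinted, mostly neuronal relative of Snrpb, and its reads cannot be told apart from those of the overlapping gene Snurf. Hnrnpa1, a splicing repressor, had a median of 44.5 FPKM, and Hnrnpu, a chromatin- and RNA-binding nuclear matrix protein, 80.7 FPKM. The 5 genes whose group means spanned the widest range were Prpf19 (2.62 on the log2 scale), Snrpg (2.22), Hnrnpd (2.19), Snrpf (2.12) and Hnrnpl (2.04). Sf3b1, with a range of 0.75, and Hnrnpc, with 0.57, were among the steady ones. Several Sm and hnRNP genes, Hnrnpa1 included, have near-identical copies elsewhere in the genome, so how their reads were assigned is uncertain.

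**Figure D1:**
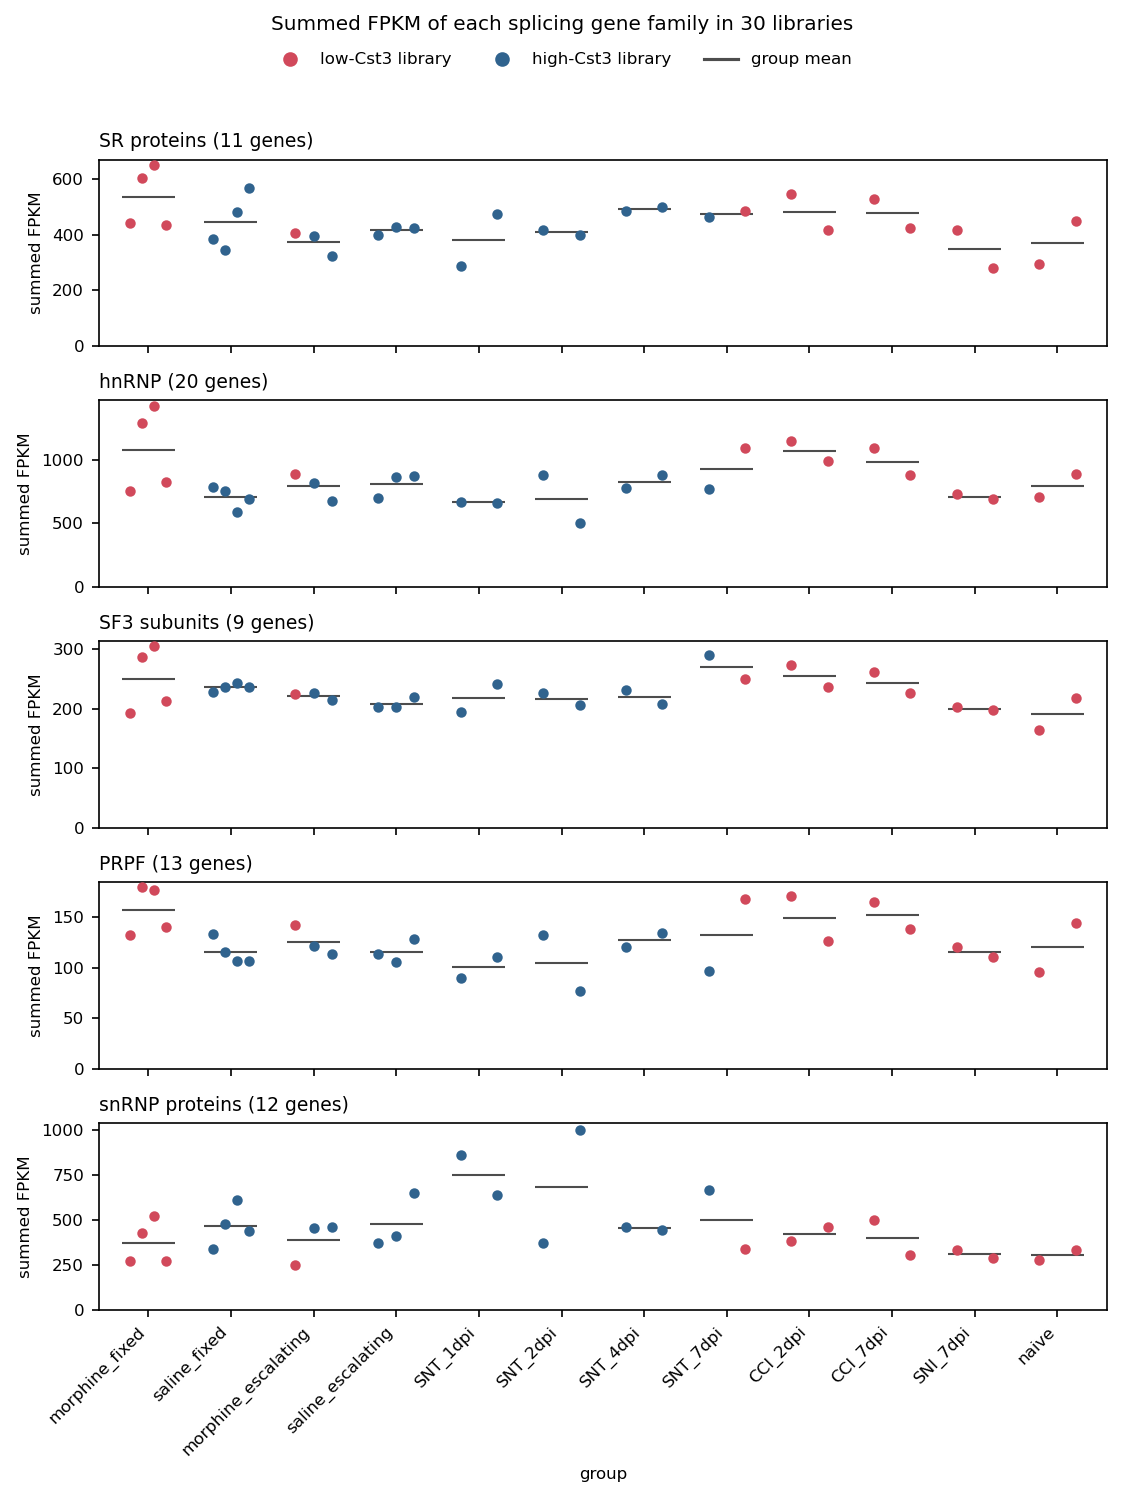
Summed FPKM of each splicing gene family (y axis, linear, from 0) in each of the 30 libraries (points) by group (x axis). Lines are group means, and colour marks the low- and high-Cst3 libraries. The snRNP sum is highest in SNT 2 dpi replicate 2 at 1002 FPKM, and the hnRNP sum is highest in fixed morphine replicate 3 at 1420 FPKM.

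Summed over all 65 genes, the level was 1539 to 3077 FPKM per library. Fixed morphine replicates 2 and 3 were highest, at 2787 and 3077 FPKM, while fixed morphine replicates 1 and 4 had 1798 and 1890 FPKM. The 4 fixed saline libraries lay between 1875 and 2039 FPKM, so the fixed morphine libraries reached above them in 2 cases and did not in the other 2. The snRNP genes did not follow the rest. Their sum was 860, 1002 and 668 FPKM in the 3 libraries with the fewest genes and at most 649.5 FPKM in the other 27.

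Chronic morphine on the fixed regimen against fixed saline gave nearly all of the calls. Of the 64 tested genes, 12 had an adjusted p under 0.05 (limma, Benjamini-Hochberg over 11759 genes), and all 12 were higher under morphine. That is 18.8% of the genes tested, beside 18.0% of all genes called either way and 13.6% called higher, so the share lies near that of the whole table. By family, they comprised 6 of 20 hnRNP, 3 of 13 PRPF, 2 of 10 SR, 1 of 9 SF3 and 0 of 12 snRNP genes. Without replicate 2 or without replicate 3 of fixed morphine 1 gene was called, Hnrnpm, and without fixed saline replicate 4, 5 or 6 the calls numbered 6, 5 and 2, while the share of all genes called in these 5 fits was 6.44% to 13.2%. Libraries of a bulk sample cannot tell fewer cells of a type from less RNA per cell, and this holds for each level given here.

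Hnrnpd, also known as AUF1, binds AU-rich elements and acts on mRNA decay. It had 6.25, 13.2, 16.3 and 7.98 FPKM in the fixed morphine libraries, against 2.17, 2.22, 3.15 and 1.55 FPKM in the fixed saline libraries. Every morphine library stood above every saline library, and replicates 2 and 3 of fixed morphine were the highest. The log2 difference was 1.80 ± 0.43 (SE; limma, adjusted p = 0.0149), the largest of the 12.

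Hnrnpm, a regulator of alternative exons, had 47.3, 83.5, 91.5 and 51.5 FPKM in fixed morphine, against 35.0, 36.6, 19.5 and 24.3 FPKM in fixed saline. The log2 difference was 1.20 ± 0.27 (limma, adjusted p = 0.0117). Hnrnpu had 97.7, 186, 193 and 103 FPKM in fixed morphine, against 56.6, 78.4, 44.9 and 56.6 FPKM in fixed saline, a log2 difference of 1.24 ± 0.33 (limma, adjusted p = 0.0226). In both genes replicates 2 and 3 of fixed morphine stood well above replicates 1 and 4, and neither gene's groups overlapped.

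Hnrnpl, which binds CA-rich RNA, had 30.7, 43.4, 55.2 and 28.2 FPKM in fixed morphine, against 12.3, 17.5, 26.2 and 18.6 FPKM in fixed saline. Its lowest morphine library lay only just above its highest saline library, and the log2 difference was 1.03 ± 0.31 (limma, adjusted p = 0.0340). The 2 other hnRNP genes called had smaller differences. Hnrnpdl, a close relative of Hnrnpd, averaged 23.1 ± 5.06 FPKM in fixed morphine and 13.8 ± 1.62 FPKM in fixed saline (SD, n = 4 each), and Hnrnpr averaged 10.7 ± 2.66 FPKM in fixed morphine and 6.14 ± 1.15 FPKM in fixed saline. Their log2 differences were 0.68 and 0.70 (limma, adjusted p = 0.0250 and 0.0377).

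Prpf19, the ubiquitin ligase whose complex activates the spliceosome, had 4.45, 13.3, 12.4 and 6.27 FPKM in fixed morphine, against 3.94, 4.25, 2.60 and 1.17 FPKM in fixed saline. The lowest morphine library exceeded the highest saline library by little, and the log2 difference was 1.31 ± 0.35 (limma, adjusted p = 0.0244). Prpf3, a protein of the tri-snRNP, averaged 8.39 ± 2.17 FPKM in fixed morphine and 4.05 ± 0.523 FPKM in fixed saline (SD, n = 4 each), with a log2 difference of 0.87 ± 0.28 (limma, adjusted p = 0.0464). Neither gene's groups overlapped.

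Srsf9 had 119.7, 141, 156 and 101 FPKM in fixed morphine, against 54.5, 51.2, 95.5 and 77.2 FPKM in fixed saline, and its log2 difference was 0.91 ± 0.28 (limma, adjusted p = 0.0404). Srsf10, an SR protein that can repress splicing when dephosphorylated, averaged 22.1 ± 4.95 FPKM in fixed morphine and 13.2 ± 1.55 FPKM in fixed saline (SD, n = 4 each), a log2 difference of 0.68 ± 0.21 (limma, adjusted p = 0.0404). Sf3a1, a subunit of the U2 snRNP, averaged 16.4 ± 4.57 FPKM in fixed morphine and 8.42 ± 2.04 FPKM in fixed saline, a log2 difference of 0.87 ± 0.25 (limma, adjusted p = 0.0332). The groups of these 3 genes did not overlap. Among the classical SR genes, Srsf1 had 11.17 to 31.0 FPKM in fixed morphine, against 8.44 to 13.1 FPKM in fixed saline (log2 difference 0.80 ± 0.34, limma, adjusted p = 0.114), and the groups overlapped.

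**Figure D2:**
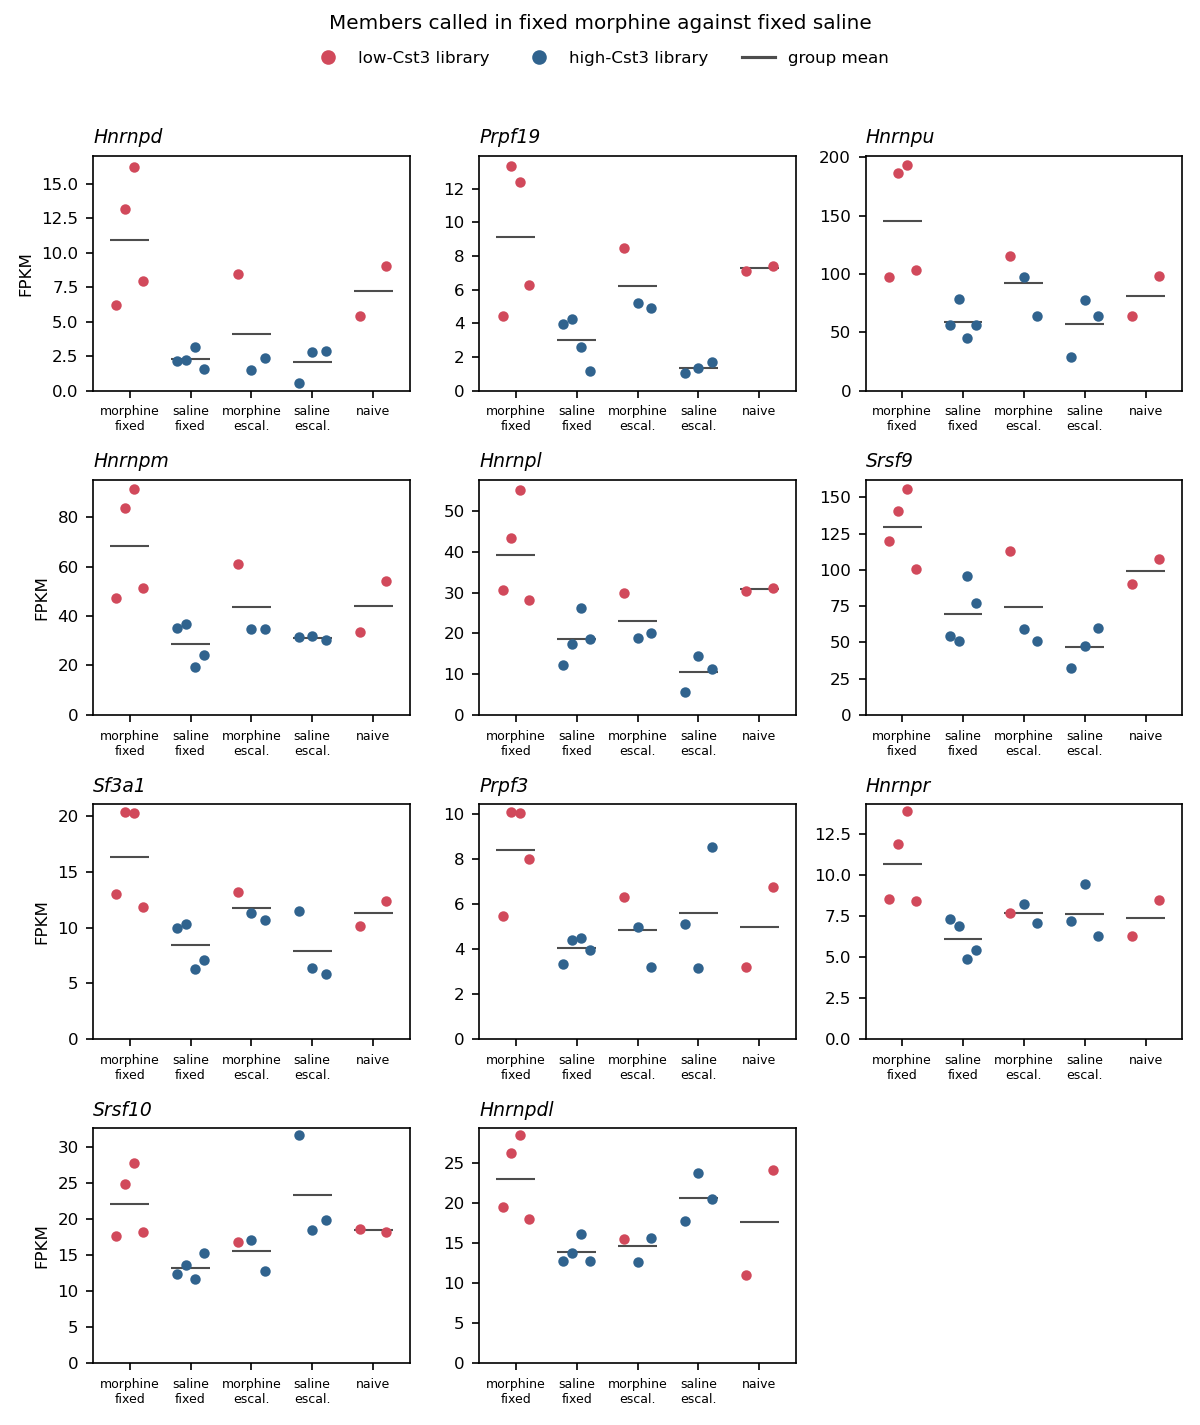
FPKM (y axis, linear, from 0) of 11 of the 12 genes called in fixed morphine against fixed saline, in 5 groups of libraries (x axis), with points for libraries, lines for group means and colour for low- and high-Cst3 libraries. In all 11 panels the fixed morphine points lie above the fixed saline points, and the naive points of Hnrnpd, at 5.45 and 9.06 FPKM, also lie above the fixed saline points.

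For 11 of the 12 called genes a promoter window is in the RefSeq table used here (250 bases before to 50 after the start). The 150 bases before the start are shown for the 4 called genes with the largest log2 differences. They lie at chr5:99978939-99979088 (Hnrnpd, minus strand), chr19:10895081-10895230 (Prpf19, plus strand), chr1:178337816-178337965 (Hnrnpu, minus strand) and chr17:33685459-33685608 (Hnrnpm, minus strand) of GRCm38.p6. Capitals mark matches, on either strand, to the GC box GGGCGG, the CCAAT box CCAAT and the ETS core CCGGAA.
Hnrnpd: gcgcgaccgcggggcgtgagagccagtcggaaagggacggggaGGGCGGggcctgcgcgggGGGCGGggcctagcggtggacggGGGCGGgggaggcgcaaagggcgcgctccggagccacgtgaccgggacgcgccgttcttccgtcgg
Prpf19: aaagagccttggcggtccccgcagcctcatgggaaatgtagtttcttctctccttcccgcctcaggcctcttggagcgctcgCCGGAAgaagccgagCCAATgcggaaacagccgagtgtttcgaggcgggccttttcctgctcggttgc
Hnrnpu: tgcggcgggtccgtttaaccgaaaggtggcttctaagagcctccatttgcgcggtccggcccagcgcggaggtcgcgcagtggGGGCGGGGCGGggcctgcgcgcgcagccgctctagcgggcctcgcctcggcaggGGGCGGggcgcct
Hnrnpm: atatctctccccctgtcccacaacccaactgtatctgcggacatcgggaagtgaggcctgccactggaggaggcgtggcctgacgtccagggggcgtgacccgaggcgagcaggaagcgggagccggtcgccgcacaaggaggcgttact

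The Hnrnpd and Hnrnpu stretches hold several GC boxes, 2 of which overlap in Hnrnpu, and the Prpf19 stretch holds an ETS core and a CCAAT box. No match to the motifs searched is in the Hnrnpm stretch. Over the whole windows, the ETS core CCGGAA was in 29 of the 57 splicing gene promoters in the table (50.9%), in 29.5% of 9031 promoters of tested genes and in 15.2% of all 27025. Among the 11 called genes it was in 5 (45.5%). GGGCGG was in 66.7% of the splicing gene promoters and in 64.6% of those of tested genes, and CCAAT was in 49.1% and 39.3%. The longer ETS motif CCGGAAGT was in 17.5% of the splicing gene promoters and 8.81% of those of tested genes, and TATAAA was in 10.5% and 6.95%. These are matches of letters, and binding was not measured.

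The snRNP proteins had the lowest family median in the same comparison, an order that did not hold in every fit. Their median log2 difference was -0.27 with 9 of 12 genes negative, against 0.55 over 20 hnRNP, 0.35 over 13 PRPF, 0.30 over 10 SR and 0.28 over 9 SF3 genes and 0.22 over all genes tested. Over all 64 genes the median was 0.35. With scaling by median ratios the snRNP median was -0.49 and with scaling to a common sum it was 0.03, so its sign depends on the scaling, while the hnRNP median was 0.32 and 0.85. These scalings moved the median of all genes to 0.04 and 0.45, and under these scalings the snRNP median lay below that of all genes and the hnRNP median above it. Against naive in place of saline the snRNP median was 0.32 and the hnRNP median 0.40, with PRPF and SF3 at 0.33 each. With the Cst3 set as a term the snRNP median was 0.49, with 11 of 12 genes positive, and the hnRNP median was 0.43. The order of both families was reversed there. That term is estimated only within escalating morphine, from replicate 1 against replicates 2 and 3, so the reversal rests on 1 low-Cst3 library.

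None of the 12 snRNP genes was called, and 4 had an unadjusted p under 0.05 (limma), which is 33.3% of them beside 34.8% of all genes. Snrpb2, which binds the U2 small nuclear RNA, had 17.1, 17.6, 19.3 and 15.6 FPKM in fixed morphine, against 23.5, 28.7, 38.4 and 26.6 FPKM in fixed saline, with no overlap and a log2 difference of -0.70 ± 0.24 (limma, adjusted p = 0.0532). Hnrnph1, which binds G-rich elements, had 24.8, 26.9, 31.3 and 21.2 FPKM in fixed morphine, against 52.0, 47.7, 35.5 and 41.0 FPKM in fixed saline, a log2 difference of -0.74 ± 0.25 (adjusted p = 0.0544). Sf3b5, a small SF3b subunit, had a log2 difference of -0.79 ± 0.27 (limma, adjusted p = 0.0571), with overlapping groups. None of these 3 passed the threshold. With median-ratio scaling 8 splicing genes were called, 4 higher and 4 lower, against 12 higher and 0 lower without it. That scaling called 15.5% of all genes. The 4 lower ones were Hnrnph1 (adjusted p = 0.0335), Snrpb2 (0.0344), Sf3b5 (0.0364) and Snrpa (0.0402), and the 4 higher ones were Hnrnpd, Hnrnpm, Hnrnpu and Prpf19.

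Groups that did not overlap were found for 14 of 64 genes with morphine higher, where 22.1% of all tested genes had this, and for 4 with morphine lower, where 7.49% of all tested genes did. Beside the 12 called genes, the 14 included Hnrnpll and Prpf39, and the 4 were Snrpb2, Hnrnph1, Hnrnph3 and Prpf38b, whose groups nearly touched.

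Several measures moved with the calls of fixed morphine. The low- and high-Cst3 sets coincide with morphine and saline here, since all 4 fixed morphine libraries are low and all 4 fixed saline libraries high, so the set and the treatment cannot be told apart in this comparison. The naive libraries are also low. Fixed morphine against naive gave 0 of 64 calls (1 at an unadjusted p under 0.05, limma), with 0.48 ± 0.56 for Hnrnpd and 0.18 ± 0.47 for Prpf19 on the log2 scale (limma, adjusted p = 1.0 for both). That fit rests on 2 naive libraries and took its spread from all 30 libraries, so its 0 is not on a par with the 12 calls. Over the alternatives that left out no library, the lowest differences of the 12 called genes ran from -0.12 (Srsf9) to 0.69 (Hnrnpu). The set entered as a term also gave 0 calls (1 at an unadjusted p under 0.05, limma). The log2 differences were then 0.10 ± 0.70 for Hnrnpd and 0.67 ± 0.70 for Prpf19. That term is estimated only within escalating morphine, where replicate 1 is low and replicates 2 and 3 are high, so it rests on 1 low library. Of all genes, 0.0% were called against naive and 0.034% with the set as a term. Microglial markers summed to 9996 to 12570 FPKM in fixed morphine and 14960 to 17330 FPKM in fixed saline. Neutrophil markers summed to 1641 to 16980 FPKM in fixed morphine and 6838 to 27690 FPKM in fixed saline, and monocyte markers to 102 to 1557 FPKM in fixed morphine and 279 to 1423 FPKM in fixed saline. Oligodendrocyte markers summed to 134 to 227 FPKM in fixed morphine and 69.6 to 150 FPKM in fixed saline, and neuronal markers to 12.3 to 41.9 FPKM in fixed morphine and 2.41 to 23.3 FPKM in fixed saline. The FPKM sum of a library ran from 312400 to 337100 across the fixed morphine libraries. Every fixed saline library was higher, at 382400 to 426600. A rough, relative floor of detection ran from 0.1185 to 0.1347 across the fixed morphine libraries. It was higher in every fixed saline library, at 0.3502 to 0.5385. Apart from scaling to a common sum, the part of these measures in the result was not tested.

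Other splicing genes gave counts of the same order. Of 71 further spliceosome genes, 5 were called higher and 4 lower under fixed morphine, and of 45 other splicing regulators 8 were higher and 1 lower (limma). Called either way were 12.7% of these spliceosome genes, beside 18.0% of all genes in this comparison. The share of the regulators lay slightly above that of all genes, so neither list stood far from the whole table. The higher spliceosome genes were Eftud2, Wbp11, Snrnp200, Dhx15 and Aqr, and Eftud2, a GTPase of the U5 snRNP, averaged 29.5 ± 13.2 FPKM in fixed morphine and 10.4 ± 3.78 FPKM in fixed saline (log2 difference 1.39 ± 0.33). The lower ones were Lsm8, Bud31, Syf2 and Lsm1, and Lsm8, which caps the ring of the U6 snRNA, averaged 11.4 ± 4.92 FPKM in fixed morphine and 30.6 ± 8.07 FPKM in fixed saline (log2 difference -1.40 ± 0.31). Among the 8 higher regulators were Khsrp, Qk, Matr3, Syncrip, Mbnl1, Nova1 and Khdrbs1, and the lower one was the helicase Ddx5. Ddx5 averaged 67.1 ± 8.90 FPKM in fixed morphine, 247 ± 50.8 FPKM in fixed saline and 62.1 ± 21.8 FPKM in naive. Of 7 kinases that phosphorylate SR proteins, Clk2 was higher (listed at 0 in all fixed saline libraries) and Clk1 and Srpk3 lower. Clk1, whose own splicing is regulated, averaged 28.6 ± 9.02 FPKM in fixed morphine and 66.2 ± 12.5 FPKM in fixed saline (log2 difference -1.22 ± 0.24, adjusted p = 0.00815).

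The size of the difference was related to the length of the transcript. Over the 64 splicing genes, the Spearman correlation between the log2 difference in fixed morphine and the longest annotated transcript was 0.41, and over 11320 tested genes with a length it was 0.44. Both are descriptions across genes of the same libraries. Ranked by length and cut into 3 equal parts, the splicing genes had a median difference of -0.04 in the shortest part and 0.64 in the longest. The snRNP genes were the shortest family, with a median of 1700.5 bases, and the hnRNP and PRPF genes the longest, with medians of 3714.5 and 4065 bases. The part of length in the family differences was not tested.

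**Figure D3:**
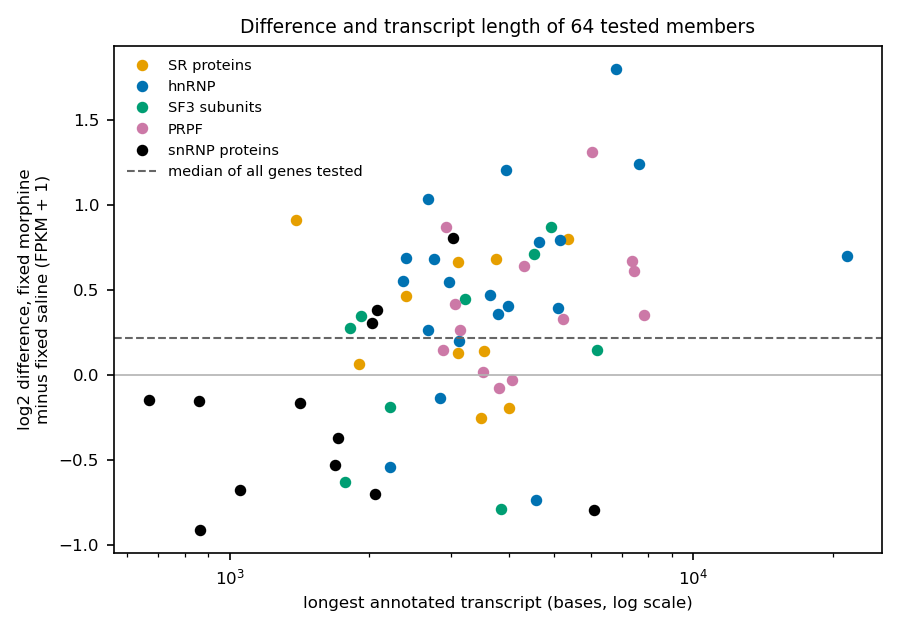
Log2 difference of fixed morphine minus fixed saline (y axis, log2 of FPKM + 1) against the longest annotated transcript (x axis, bases, log scale) for the 64 tested genes, coloured by family. The dashed line is the median of all tested genes, 0.22. Most snRNP genes lie at the short end and below the line, while Hnrnpd, at 1.80, lies highest.

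On the escalating regimen none of the 64 genes was called against escalating saline, and 12 had an unadjusted p under 0.05, 6 in each direction (limma), which is 18.8% of them beside 19.2% of all genes. Over all genes 0.034% were called. The median log2 difference was -0.07 over the splicing genes and 0.16 over all genes. The lowest p-values were those of Prpf19, with 8.47, 5.20 and 4.92 FPKM in escalating morphine against 1.08, 1.36 and 1.69 FPKM in escalating saline (log2 difference 1.57 ± 0.41, limma, adjusted p = 0.1001). The groups did not overlap, and all 3 morphine libraries were at least at 4.92 FPKM, including the 2 of high Cst3. Hnrnpul1 had a log2 difference of 1.02 ± 0.30 and Hnrnpl of 1.11 ± 0.35 (limma, adjusted p = 0.119 and 0.133). On the other side, Hnrnpa1 had 19.7, 33.6 and 17.8 FPKM in escalating morphine against 51.5, 53.1 and 62.6 FPKM in escalating saline, a log2 difference of -1.25 ± 0.43 (limma, adjusted p = 0.159). Srsf3, a small SR protein that also exports mRNA, had -0.83 ± 0.27 and Sf3b6, which touches the branch point, -0.94 ± 0.32 (limma, adjusted p = 0.139 and 0.149). None of these 6 passed the threshold.

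Hnrnpd showed the division into sets inside this group. It had 8.45 FPKM in escalating morphine replicate 1, a low-Cst3 library, and 1.496 and 2.40 FPKM in replicates 2 and 3, of high Cst3. Hnrnpm did likewise, with 60.9 FPKM in replicate 1 and 34.9 and 35.0 FPKM in replicates 2 and 3.

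The difference between the 2 regimens was tested directly. No splicing gene was called for fixed minus escalating morphine response, 12 had an unadjusted p under 0.05, 10 positive and 2 negative (limma; 11.7% of all genes had one), and 0.0085% of all genes were called. Hnrnpdl (1.15 ± 0.28), Srsf10 (1.21 ± 0.32) and Hnrnpa3 (1.32 ± 0.41) had the lowest p-values among positive differences, with adjusted p of 0.221, 0.223 and 0.269. Sf3a2 (-1.14 ± 0.43), Snrpf (-1.31 ± 0.60) and Snrpa (-0.66 ± 0.36) had the lowest among negative ones, with adjusted p of 0.353, 0.419 and 0.491. Srsf10 had 17.7, 24.8, 27.7 and 18.1 FPKM in fixed morphine and 12.3, 13.6, 11.7 and 15.2 FPKM in fixed saline, but 16.8, 17.1 and 12.8 FPKM in escalating morphine and 31.5, 18.4 and 19.8 FPKM in escalating saline. Without escalating morphine replicate 1, 2 splicing genes and 3.73% of all genes were called.

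After nerve transection the 9 controls, naive and saline together, were the reference of every day, so the days share them. No splicing gene was called at 1 dpi (0.017% of all genes were), at 2 dpi (0.0%), at 4 dpi (0.0%) or at 7 dpi (0.204%), and those with an unadjusted p under 0.05 numbered 4, 6, 0 and 3 (limma), where 16.1%, 7.33%, 2.34% and 8.88% of all genes had one. At 1 dpi the lowest p-values were those of 3 Sm genes. Snrpd2 had 109 and 58.0 FPKM at 1 dpi, against a lowest, median and highest of 20.6, 28.3 and 51.1 FPKM in the controls (log2 difference 1.38 ± 0.44, limma, adjusted p = 0.161). Snrpd3 had 67.3 and 42.0 FPKM at 1 dpi, against 11.5, 23.6 and 36.5 FPKM in the controls (1.25 ± 0.44, adjusted p = 0.185, limma). Both genes stood above all controls at 1 dpi, while Snrpg, with 232 and 156 FPKM at 1 dpi against 36.5, 72.5 and 169.9 FPKM in the controls, overlapped (1.46 ± 0.61, adjusted p = 0.254, limma).

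The snRNP median difference at 1 dpi was 0.70, with 10 of 12 genes positive, against -0.13 over all 64 splicing genes and -0.25 over all genes. At 2 dpi it was 0.59. SNT 1 dpi replicate 1 and SNT 2 dpi replicate 2, with few genes, had the highest snRNP sums of their groups. Without the 3 libraries with few genes the snRNP median was 0.54 at 1 dpi and -0.11 at 2 dpi. At both scalings tried it stayed above 0 (0.90 and 0.42 at 1 dpi, 0.92 and 0.40 at 2 dpi).

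At the other end of 1 dpi, Hnrnpdl (-0.87 ± 0.40) and Srsf4 (-0.96 ± 0.54) had adjusted p of 0.288 and 0.369 (limma). At 2 dpi Snrpf had 21.2 and 82.8 FPKM (1.27 ± 0.46 against the controls, adjusted p = 0.671, limma). Its replicates lay far apart, as did those of Snrpd3 (23.8 and 102 FPKM) and Snrpb2 (27.1 and 66.4 FPKM), with replicate 2 higher each time. Among negative differences at 2 dpi were Hnrnpf (-0.87 ± 0.35), Hnrnpm (-0.84 ± 0.36) and Prpf40b (-1.06 ± 0.47), with adjusted p of 0.671, 0.671 and 0.674 (limma). Without SNT 2 dpi replicate 1, 9 splicing genes and 9.72% of all genes were called at 2 dpi, resting on replicate 2 alone, a library with few genes that is assumed to vary like the other groups.

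At 4 dpi the lowest p among higher genes was that of Prpf39 (0.78 ± 0.43), Srsf10 (0.63 ± 0.36) and Srsf7 (0.54 ± 0.35), and among lower ones that of Prpf19 (-1.06 ± 0.53), Hnrnpab (-0.47 ± 0.37) and Sf3a2 (-0.57 ± 0.52), all with adjusted p = 1.0 (limma). Prpf19 had 0.787 and 0.890 FPKM at 4 dpi, below every control (1.08, 2.60 and 7.43 FPKM as lowest, median and highest). At 7 dpi the 2 libraries belonged to different sets, and Hnrnpd had 1.18 FPKM in replicate 1 (high Cst3) and 9.95 FPKM in replicate 2 (low Cst3). Prpf19 had 2.06 and 13.3 FPKM in the same order, and Hnrnpl 3.99 and 36.0 FPKM. Sf3a3, with 38.4 and 27.6 FPKM at 7 dpi against 14.6 to 25.2 FPKM in the controls (0.73 ± 0.28), Snrpd3 (1.12 ± 0.44) and Snrpn (1.26 ± 0.51) had the lowest p-values, with adjusted p of 0.491, 0.505 and 0.521 (limma). Prpf18 (-0.92 ± 0.45), Hnrnpul1 (-0.95 ± 0.58) and Sf3a2 (-0.71 ± 0.52) were lowest on the negative side, with adjusted p of 0.574, 0.659 and 0.716. Without SNT 7 dpi replicate 2, 3 splicing genes and 8.56% of all genes were called, on 1 remaining library with few genes that is assumed to vary like the other groups.

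Over the 4 transection days together none of the 64 genes was called (0.0% of all genes), and 3 had an unadjusted p under 0.05 (limma), where 7.13% of all genes had one. These were Snrpd3 (0.92 ± 0.27, adjusted p = 0.471), Snrpb2 (0.57 ± 0.26, adjusted p = 0.691) and Snrpd2 (0.60 ± 0.27, adjusted p = 0.691). Snrpd3 had a lowest, median and highest of 20.7, 43.8 and 102 FPKM over the 8 transection libraries, against 11.5, 23.6 and 36.5 FPKM over the 9 controls. On the negative side Prpf40b (-0.55 ± 0.29), Srsf4 (-0.61 ± 0.33) and Hnrnpc (-0.24 ± 0.16) had adjusted p of 0.710, 0.718 and 0.748 (limma).

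Chronic constriction and spared nerve injury, whose libraries all have low Cst3, gave 1 call when averaged and set against the 9 controls. Hnrnpd had a lowest, median and highest of 7.09, 9.26 and 12.8 FPKM over the 6 injury libraries, against 0.555, 2.78 and 9.06 FPKM over the controls, and the 2 naive libraries, at 5.45 and 9.06 FPKM, were the highest controls. The log2 difference was 1.46 ± 0.38 (limma, adjusted p = 0.0477). It was 1 of 64 genes tested, where 1.83% of all genes were called. Against the naive controls alone the difference was 0.37 ± 0.55 (adjusted p = 1.0, limma), and with the set as a term 0.19 ± 0.38. Leaving out any 1 saline or injury library ended the call, while a fit without either one of the naive libraries called 4 splicing genes, beside 5.3% of all genes without replicate 1 and 7.2% without replicate 2.

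Prpf19 and Srsf9 came next without passing. Prpf19 had 6.90, 9.16 and 12.1 FPKM as lowest, median and highest over the CCI and SNI libraries, against 1.08, 2.60 and 7.43 FPKM in the controls (1.36 ± 0.36, limma, adjusted p = 0.0512). Srsf9 had 102, 118.0 and 145 FPKM over the injury libraries, against 32.6, 60.2 and 108 FPKM in the controls (0.89 ± 0.25, adjusted p = 0.0591, limma). Hnrnph3 (-0.72 ± 0.29), Hnrnph1 (-0.79 ± 0.34) and Sf3b5 (-0.60 ± 0.29) had the lowest p-values on the negative side, with adjusted p of 0.166, 0.202 and 0.242.

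Taken by day, CCI gave no called splicing gene at 2 dpi (0.0085% of all genes) or at 7 dpi (0.0%), and SNI gave none at 7 dpi (0.0%). Those with an unadjusted p under 0.05 numbered 11, 5 and 4 (limma), where 10.7%, 9.75% and 4.07% of all genes had one. At CCI 2 dpi Hnrnpd had 12.8 and 9.99 FPKM and Hnrnpm 76.1 and 59.1 FPKM, above all 9 controls (1.70 ± 0.56 and 1.05 ± 0.36, adjusted p = 0.387 and 0.393, limma), and Prpf19 had 9.55 and 10.1 FPKM, also above the controls (1.49 ± 0.53, adjusted p = 0.393). At CCI 7 dpi the same 3 genes, Prpf19 (1.56 ± 0.53), Hnrnpm (1.01 ± 0.36) and Hnrnpd (1.49 ± 0.56), had the lowest p-values, with adjusted p of 0.331, 0.336 and 0.356 (limma). Both days share the 9 controls, so the 2 results are not independent.

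On the negative side of CCI 2 dpi stood Hnrnph1 (-0.99 ± 0.51), Srsf5 (-0.90 ± 0.53) and Hnrnph3 (-0.69 ± 0.43), with adjusted p from 0.493 to 0.554, and at CCI 7 dpi Hnrnph3 (-0.66 ± 0.43), Sf3b5 (-0.56 ± 0.42) and Snrpb2 (-0.49 ± 0.41), with adjusted p from 0.649 to 0.731 (limma). After SNI, Hnrnpa1 had 26.1 and 14.5 FPKM, below every control (26.3, 51.5 and 62.6 FPKM as lowest, median and highest), with a log2 difference of -1.09 ± 0.41 (limma, adjusted p = 0.999). Srsf3 had 34.2 and 26.8 FPKM after SNI, against a lowest control of 34.4 FPKM (-0.68 ± 0.31), and Srsf2 had 55.6 and 34.6 FPKM after SNI (-0.82 ± 0.38). Hnrnpd (1.18 ± 0.56), Srsf9 (0.72 ± 0.37) and Prpf19 (1.04 ± 0.53) were the positive ones, all with adjusted p = 0.999 (limma).

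**Figure D4:**
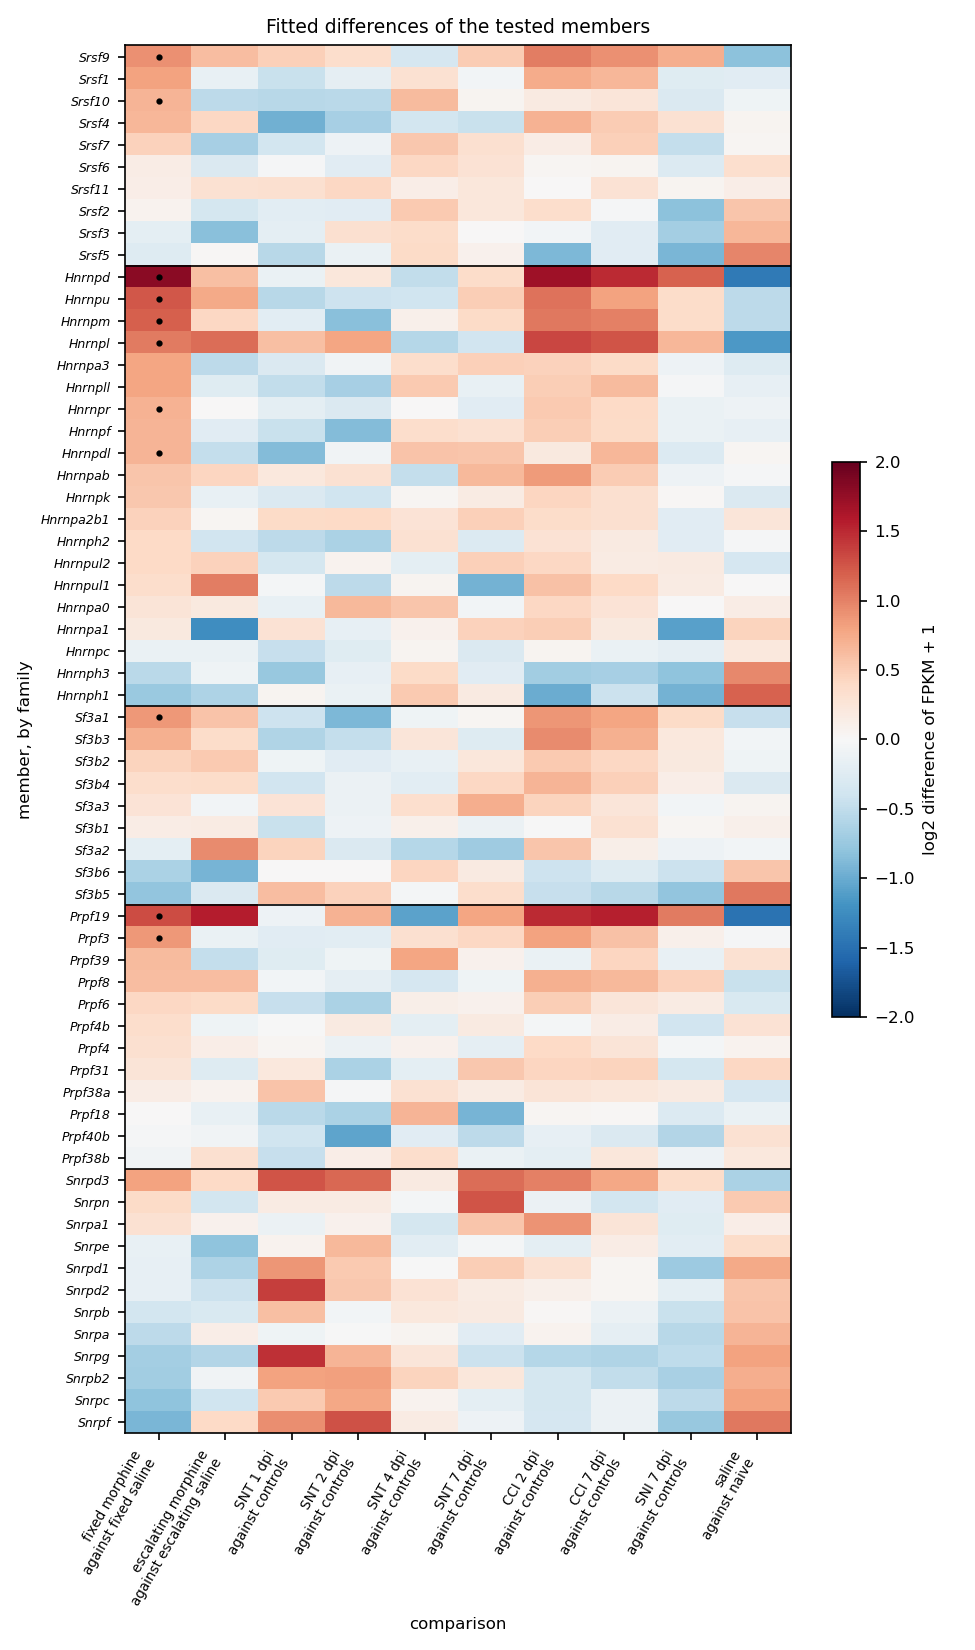
Fitted log2 differences (colour scale, log2 of FPKM + 1, red for positive) of 63 of the 64 tested genes (rows, by family and ordered by the first column) in 10 comparisons (columns). Black points mark 11 of the 12 genes with an adjusted p under 0.05 in fixed morphine against fixed saline. Hnrnpd is darkest red in the fixed morphine and CCI 2 dpi columns, and Prpf19 is red in both morphine columns and both CCI columns. Both genes are blue in saline against naive, and the snRNP rows are mostly red in the columns of SNT at 1 and 2 dpi.

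Constriction was set against transection on days 2 and 7, where both were sampled. No splicing gene was called (0.0% of all genes), and 15 had an unadjusted p under 0.05, 13 with CCI higher and 2 with CCI lower (limma), which is 23.4% of them beside 22.5% of all genes. Hnrnpm had 76.1, 59.1, 77.6 and 55.0 FPKM in the CCI libraries, against 24.9, 12.1, 25.03 and 69.2 FPKM in the SNT libraries of these days (1.26 ± 0.33, limma, adjusted p = 0.0874). The groups overlapped through SNT 7 dpi replicate 2, the only low-Cst3 library of SNT. Sf3a1 (1.26 ± 0.39) and Hnrnpll (0.96 ± 0.36) followed, with adjusted p of 0.131 and 0.168, and Snrpb2 (-0.94 ± 0.38), Sf3b5 (-0.92 ± 0.38) and Snrpn (-0.96 ± 0.46) were lowest on the negative side, with adjusted p of 0.181, 0.192 and 0.223 (limma). Without SNT 7 dpi replicate 2, 20 splicing genes and 28.8% of all genes were called, and without SNT 2 dpi replicate 1, 17 splicing genes and 16.1% of all genes. Each of these fits leaves 1 SNT library on the day concerned, a library with few genes that is assumed to vary like the other groups. Without SNT 7 dpi replicate 2 all CCI libraries have low and all SNT libraries high Cst3, so injury and set cannot be told apart in that fit.

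The 2 kinds of control were also set against each other. Saline against naive gave 0 called of 64 (0.604% of all genes), and 11 had an unadjusted p under 0.05, 7 higher and 4 lower in saline (limma), where 12.8% of all genes had one. Prpf19 had a lowest, median and highest of 1.08, 1.69 and 4.25 FPKM in the 7 saline libraries, against 7.11 and 7.43 FPKM in the naive libraries (-1.47 ± 0.44, limma, adjusted p = 0.112). Hnrnpd had 0.555, 2.22 and 3.15 FPKM in saline, against 5.45 and 9.06 FPKM in naive (-1.41 ± 0.52, adjusted p = 0.212, limma). In both genes every saline library lay below both naive libraries, and Srsf9 overlapped (-0.82 ± 0.33, adjusted p = 0.254). In the other direction Hnrnph1 had 35.5, 47.7 and 58.0 FPKM in saline, against 12.99 and 32.1 FPKM in naive (1.17 ± 0.46, adjusted p = 0.248, limma), and Sf3b5 had 33.1, 50.6 and 70.9 FPKM in saline, against 20.6 and 26.8 FPKM in naive (1.05 ± 0.36, adjusted p = 0.175). Hnrnph3 had 0.97 ± 0.38 (adjusted p = 0.248). All saline libraries have high and both naive libraries low Cst3, so injection and set cannot be told apart here.

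Levels were also compared between the 2 Cst3 sets over all 30 libraries. The set is defined from the data, so the following is a description. Between the medians of the 14 low- and 16 high-Cst3 libraries, 43 of the 64 genes were higher and 21 lower in the low set, with a median log2 difference of 0.17. Of all 11759 genes tested, 7746 were higher and 3862 lower, with a median of 0.20, so the splicing genes as a whole lay near the rest of the table. By family, 16 of 20 hnRNP genes (median 0.35), 12 of 13 PRPF genes (0.18), 7 of 9 SF3 genes (0.22) and 6 of 10 SR genes (0.16) were higher, and 10 of 12 snRNP genes were lower (-0.45). No splicing gene separated the sets without overlap, where 3.49% of all tested genes did so with the low set higher and 0.952% with the low set lower. Hnrnpd had 5.45, 8.79 and 16.3 FPKM as lowest, median and highest in the low set and 0.555, 2.17 and 6.23 FPKM in the high set. Prpf19 had 4.45, 8.62 and 13.3 FPKM in the low set and 0.787, 2.46 and 6.34 FPKM in the high set. Snrpg had 20.2, 40.9 and 67.9 FPKM in the low set and 36.5, 87.6 and 259.6 FPKM in the high set. The log2 difference of the medians was 1.63 for Hnrnpd, 1.48 for Prpf19 and -1.08 for Snrpg.

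The balance of hnRNP to snRNP levels was set beside Cst3 as a further description. The ratio of the summed FPKM of the 20 hnRNP genes to that of the 12 snRNP genes was 2.13 to 3.52 in the low set and 0.502 to 2.38 in the high set. In fixed morphine it was 2.79, 3.01, 2.73 and 3.03, against 2.32, 1.57, 0.970 and 1.57 in fixed saline, and in naive it was 2.53 and 2.67. Within escalating morphine it was 3.52 in replicate 1 and 1.79 and 1.48 in replicates 2 and 3, and at SNT 7 dpi it was 1.16 in replicate 1 and 3.23 in replicate 2. In these 2 groups the library of low Cst3 had the higher ratio.

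**Figure D5:**
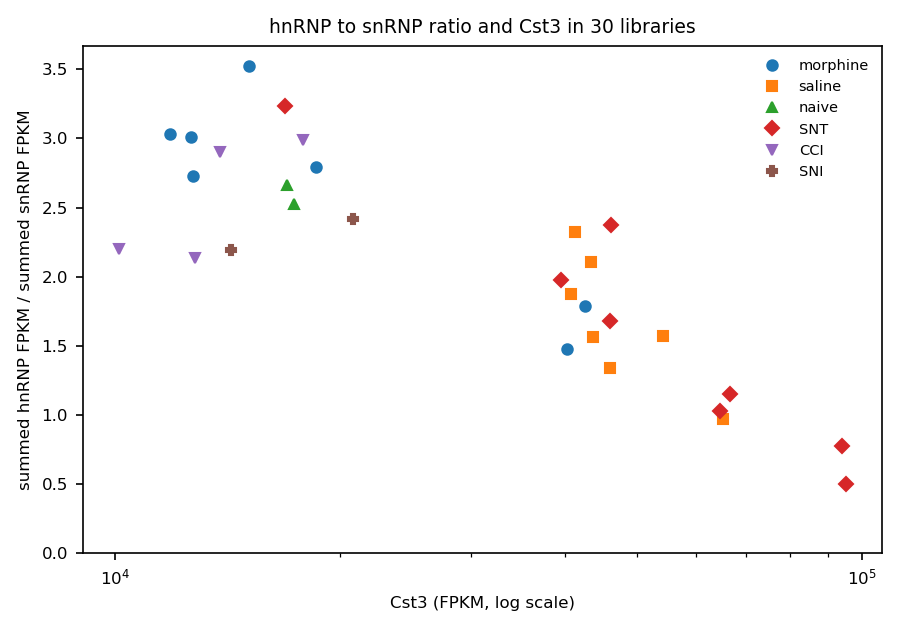
Ratio of summed hnRNP FPKM to summed snRNP FPKM (y axis, from 0) against the level of Cst3 (x axis, FPKM, log scale) in the 30 libraries, with symbols for morphine, saline, naive, SNT, CCI and SNI. The 14 libraries at 10120 to 20830 FPKM of Cst3 have ratios of 2.13 to 3.52, and the ratio is lowest, at 0.502, in the library with the most Cst3.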

How the data were processed

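CD11b-selected cells were measured by RNA-seq with Smart-Seq2 and Nextera XT libraries, per the labels. The authors deposited 1 table of FPKM values with 30 columns. Per the submitters' processing notes, the build was mm10 and the tools included Cufflinks 2.2.1, HISAT2 2.0.5.1, DESeq2 and featureCounts 1.4.6; their roles, the annotation and any filter are not given in the sources used here. The 826 rows of 281 repeated symbols were left out. Genes with at least 1 FPKM in at least 2 libraries were tested as log2(FPKM + 1) with limma 3.58.1 in R 4.3.3 (intensity trend, two-sided, Benjamini-Hochberg, threshold 0.05); a fold on this scale understates the change of low genes. Morphine and saline groups shared a fit of 14 libraries, and injuries and the 9 controls a fit of 23. Saline against naive and fixed morphine against naive used all 30. The procedure was tested on simulated data. No 2 libraries held the same values. Called genes were named, or, with none called, the 3 with the lowest p in each direction. Some genes are not reported here by name, but they stay in the fits, counts and sums. Transcript lengths are those of GENCODE vM21. The splicing genes, lists and tests were chosen with earlier results of these data known. Alternatives covered the pseudocount (0.1), the filter, scaling, weights, controls, libraries left out and a replicate block. Figures used Python 3.11.15 and matplotlib 3.10.9.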

Additional observations from a re-analysis of the deposited data

Results flagged for a closer look

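In groups of 4 libraries, the highest and lowest values of the named genes and the family sums were compared with the rest. Of 102 such groups, 1 held a library that stood apart, and chance flags about 1 in 20 groups. Snrpn, the imprinted relative of Snrpb, had 4.14 FPKM in fixed morphine replicate 3, while the other 3 fixed morphine libraries had at least 1.16 and at most 1.4 FPKM. The fixed saline libraries had 1.96, 2.84, 0.374 and 0.375 FPKM. Neuronal markers summed to 41.9 FPKM in that library and to 12.3 to 19.8 FPKM in the other 3, and their part in the value was not tested.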

How the results depend on the processing

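For fixed morphine against fixed saline, where 12 splicing genes were called, scaling to a common sum gave 26, all higher (30.2% of all genes were called), and array weights 29, of which 25 were higher and 4 lower (37.0% of all genes). The replicate block, the set as a term and naive in place of saline each gave 0 (7, 1 and 1 at an unadjusted p under 0.05, limma). Of all genes, these 3 fits called 0.0%, 0.034% and 0.0%. With the replicate block Hnrnpd had an adjusted p of 0.307 (limma). Fixed morphine and fixed saline share only replicate numbers 3 and 4, so the blocked fit had little power and its 0 decides nothing. Leaving out 1 library gave 1 to 14 calls: 1 without fixed morphine replicate 2 or 3, 2 without fixed saline replicate 6, 5 without replicate 5 and 6 without replicate 4. The 14 calls came without fixed saline replicate 3 (18.4% of all genes), 10 of them higher and 4 lower. Only 8 of these were among the 12 of the main fit. Srsf9 reversed to -0.12 with the set as a term, which is estimated only within escalating morphine. The replicate numbers showed no steady pairing of libraries (correlations of deviations -0.43 to 0.22, over 0.1 in 8 of 58 pairs). Between groups of 2 libraries, numbers 1 and 2 always give the same correlation, so most of these pairs repeat another one. No paired analysis was possible for escalating morphine and saline against naive because they share no numbers.

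For CCI and SNI together (1 call), pseudocount 0.1, no filter, median-ratio scaling, naive controls alone, the replicate block and the set as a term gave 0, the common sum 3 (3.55% of all genes), array weights 12 (18.7%), and the fit without the 3 few-gene libraries 7 (1289 genes in all); leaving out 1 library gave 0 to 4. Array weights gave 4 calls for fixed minus escalating (5.81% of all genes), 3 at CCI 2 dpi (2.23%), 5 at CCI 7 dpi (9.08%) and 8 for saline against naive (10.2%). Leaving out 1 library gave 0 to 2 calls for fixed minus escalating, 0 to 9 at SNT 2 dpi, 0 to 3 at SNT 7 dpi and 0 to 20 for CCI against SNT.

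Median differences of the 64 genes moved with scaling. Median-ratio scaling gave -0.24 for escalating morphine, 0.04 and 0.20 at SNT 1 and 2 dpi, 0.16 and 0.06 at CCI 2 and 7 dpi and -0.11 for CCI against SNT. A common sum gave 0.52 for fixed minus escalating, -0.36 and -0.29 at SNT 1 and 2 dpi, 0.55 and 0.44 at CCI 2 and 7 dpi, 0.04 after SNI, 0.36 for CCI and SNI, 0.53 for CCI against SNT and -0.25 for saline against naive. Without the 3 libraries with few genes the medians at SNT 1, 2 and 7 dpi were 0.06, 0.07 and 0.45. The set as a term gave 0.24 for saline against naive. Leaving out 1 library moved the medians to -0.24 to 0.06 at SNT 1 dpi, -0.25 to 0.07 at SNT 2 dpi, 0.0 to 0.45 at SNT 7 dpi and -0.15 to 0.37 for saline against naive. The alternatives with the set, naive in place of saline and high-Cst3 libraries alone were added after seeing the data. The cause of these shifts was not tested. The replicate block changed no other call. Without read counts the depth itself cannot be set against any of these differences. The rough floor of detection, whose values for fixed morphine all lay below those for fixed saline, was not tested against them.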
